A study of Mus musculus with 11 samples.

Results

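The matrix metalloproteinases described here are 10 genes of 22600 in the merged count table of whole distal tibia, and they were chosen by symbol (Mmp2, Mmp3, Mmp8, Mmp9, Mmp12, Mmp13, Mmp14, Mmp16, Mmp19 and Mmp23). RNA was sequenced from powdered whole bone, marrow included, of 7 BMAd-DTA and 4 Control mice, each mouse giving 1 library. All mice were labelled C57BL6/SJL, a mixed background, were 24 weeks old and ate ad libitum. No treatment was compared here, but the figure legend that covers the sequencing describes calcein injections before dissection. According to the study's methods, Control mice too carried Osterix-FLPo and FAC, an Adipoq-Cre allele that becomes active only in cells with a history of Osterix expression. The Control genotype is labelled BMAd-WT. In BMAd-DTA mice this Cre also removes a LoxP-flanked STOP cassette at Rosa26, so that diphtheria toxin A is made in bone marrow adipocytes (BMAds) and kills them. As a model the cross has limits that the study names, since recombination is not complete and a small subset of marrow adipogenic lineage precursors is also targeted. The comparison of the groups asks how the expression of these proteinases in bone differs when BMAds are depleted.

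MMPs are zinc-dependent endopeptidases that cut extracellular matrix, and most are secreted or displayed as proenzymes whose prodomain must be removed. In bone they release collagen fragments during resorption and remodelling, and they are made by osteoclasts, osteoblasts, osteocytes, hypertrophic chondrocytes and marrow leukocytes. The gelatinases (Mmp2, Mmp9) cut denatured collagen, the collagenases (Mmp8, Mmp13) cut native fibrils, and the membrane-type enzymes (Mmp14, Mmp16) act at the cell surface, where MMP14 activates proMMP2 with TIMP2 as an adaptor. The tissue inhibitors (TIMPs) block the active enzymes.

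Total counts were 16969529 to 18637663 in controls and 17128711 to 18432805 in BMAd-DTA mice. Markers of bone were present in every library. The summed CPM (counts scaled to library size by the TMM method) of 11 osteoblast and osteocyte markers was 2054 to 7965 in controls and 10058 to 21290 in BMAd-DTA mice, and the 10 adipocyte markers summed to 839 to 1656 CPM and 375 to 1057 CPM. Control replicate 1 stood apart, with 1245 CPM of Col1a1 against 5588 to 6226 CPM in the other controls. Skeletal muscle markers differed between libraries of both groups, from 18 to 1351 CPM in controls and from 19.9 to 1058 CPM in BMAd-DTA mice, and they were under 26 CPM in Control replicate 4 and BMAd-DTA replicates 2, 3 and 5. The sample labels give no sex and the study's legends describe males, but Xist was at 13810 counts or more in every library. The Y-linked genes Ddx3y and Eif2s3y had at most 1 count in a library, and Kdm5d and Uty had 0. By these counts all the mice were female, unlike those of the legends. In bulk bone, fewer cells of a type and less RNA per cell cannot be told apart.

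Of the 10 genes, 4 lie in a cluster on mouse chromosome 9 of GRCm38 (Mmp13 at 7272514 to 7283331, Mmp12 at 7344381 to 7369499, Mmp3 at 7445822 to 7455975 and Mmp8 at 7558456 to 7568485, all on the forward strand). Mmp16 and Mmp23 are both on chromosome 4 (17852893 to 18119145 and 155650655 to 155653384), and the others lie on chromosome 8 (Mmp2, 92827291 to 92853420), chromosome 2 (Mmp9, 164940780 to 164955850), chromosome 14 (Mmp14, 54431612 to 54445364) and chromosome 10 (Mmp19, 128790910 to 128800824). RefSeq promoters (GRCm38.p6, from 250 bases before to 50 after a start site) were found for Mmp3, Mmp8, Mmp12, Mmp13, Mmp14 and Mmp23, with 8 promoters for the 6 genes. They were not found for Mmp2, Mmp9, Mmp16 and Mmp19. Each was searched on both strands for TGANTCA, the AP-1 motif, and TGTGGT, the core of the RUNX motif, since AP-1 and RUNX2 are textbook regulators of Mmp13. The letters of the first are in 7.81% and those of the second in 16.8% of 32851 mouse promoters of the same length. The windows that held a match are shown as 30 bases, 5′ to 3′ on the gene's strand, with the match in capitals. They set Mmp3, Mmp12 and Mmp13 of the chromosome 9 cluster beside Mmp14 and Mmp23.
Mmp13, AP-1, chr9:7272468-7272497, plus strand: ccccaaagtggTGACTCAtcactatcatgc
Mmp12, AP-1, chr9:7347319-7347348, plus strand: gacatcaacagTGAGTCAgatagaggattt
Mmp3, AP-1, chr9:7445765-7445794, plus strand: ggaagcaattaTGAGTCAgttttcgggtga
Mmp13, RUNX, chr9:7272384-7272413, plus strand: attctgccacaaACCACActtaggaagaaa
Mmp14, RUNX, chr14:54431472-54431501, plus strand: atggcagcctgcACCACAgaaaagacaaac
Mmp23, RUNX, chr4:155653544-155653573, minus strand: cccaaatttcatTGTGGTaccagagggttg
The AP-1 letters began 35 bases before the start site of Mmp13, 44 before that of the downstream promoter of Mmp12 and 46 before that of Mmp3. The RUNX letters began 118 bases before the start of Mmp13, 114 before that of Mmp14 and 177 before 1 of the 2 starts of Mmp23, and in the promoter of Mmp13 the 2 motifs did not overlap. The promoter of Mmp8 and the upstream promoter of Mmp12 held neither. These are matches of letters, and no binding was measured.

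Before the groups were compared, the genes were ordered by level per transcript length, as CPM per kb of exon. In controls Mmp9 was highest, at 367 ± 102 CPM per kb (SD, n = 4), followed by Mmp8 at 222 ± 13.9, Mmp13 at 66.3 ± 37.5, Mmp2 at 28.2 ± 2.38 and Mmp14 at 17.5 ± 2.61. Each of these lay above the next in all 4 controls, with no overlap of their ranges. Mmp19 (4.45 ± 0.44 CPM per kb) and Mmp23 (4.07 ± 1.3) overlapped each other, as did Mmp3 (0.492 ± 0.23), Mmp16 (0.447 ± 0.24) and Mmp12 (0.198 ± 0.24), neighbour by neighbour. In BMAd-DTA mice Mmp9 was again highest at 504 ± 135 CPM per kb (SD, n = 7). The ranges of Mmp8 (203 ± 25.2) and Mmp13 (125 ± 63.1) now overlapped, as did those of Mmp13 and Mmp2 (50.3 ± 8.66), although Mmp13 was above Mmp2 in all 7 mice. Mmp14 (25.5 ± 5.01) overlapped none of the others, and below it Mmp23 (7.54 ± 1.43), Mmp19 (5.28 ± 0.6), Mmp12 (3.35 ± 3.84), Mmp3 (1.03 ± 0.46) and Mmp16 (0.824 ± 0.35) each overlapped the next.

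**Figure D1:**
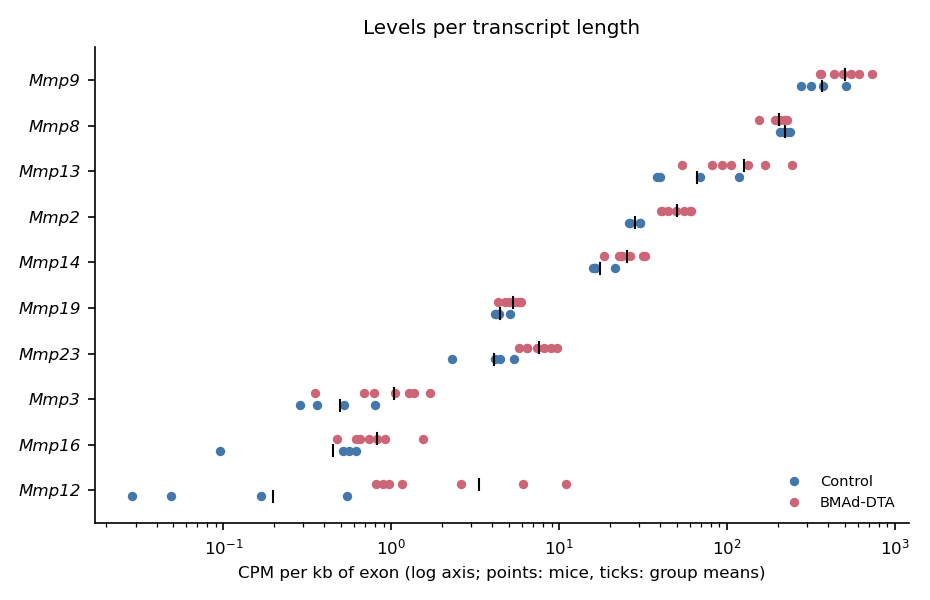
Level of each matrix metalloproteinase in CPM per kb of exon on a log axis, with each mouse as a point (4 Control, 7 BMAd-DTA) and the group mean as a tick. Mmp9 is highest in both groups, and Mmp12, with a control mean of 0.198 CPM per kb, is lowest in controls and spans the widest range.

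By summed CPM, Mmp9 and Mmp8 made up most of the expression of the 10 genes. Mmp9 made up 57.4% ± 4.26 of the summed CPM of the 10 genes in controls (SD, n = 4) and 58.9% ± 3.32 in BMAd-DTA mice (SD, n = 7). The share of Mmp8, the neutrophil collagenase, was 24.5% ± 3.6 in controls and 16.9% ± 3.61 in BMAd-DTA mice, and the share of Mmp13 was 7.64% ± 3.03 and 10.7% ± 3.45. The sum itself ranged from 1888 to 2957 CPM in controls and from 2235 to 3985 CPM in BMAd-DTA mice, with 3 BMAd-DTA sums above all controls.

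Across the groups, the fitted level was higher in BMAd-DTA mice for 9 of the 10 genes and lower for Mmp8. Their median log2 fold change was 0.86, where that of all 16496 genes tested was 0.0018. Mmp2 rose, and it alone passed an adjusted p of 0.05 in the quasi-likelihood test of edgeR (Benjamini-Hochberg adjustment over all genes), by which 0.0727% of all genes were called higher. Without adjustment, 7 of the 10 genes had a p under 0.05 with a higher level in BMAd-DTA mice, where 7.89% of all genes did. The groups did not overlap in 3 genes (Mmp2, Mmp12 and Mmp23, all higher in BMAd-DTA mice), which held for 1.78% of all genes. DESeq2, the tool named in the study's methods, called 4 of the 10 higher (Mmp2, Mmp12, Mmp14 and Mmp23), beside 2.78% of the genes it gave an adjusted p. The 10 genes were chosen with earlier results of these data known, so these shares do not describe the MMP family as a whole. Among the 6 tested MMP genes outside the set, the median log2 fold change was -0.0050 and none passed in edgeR or DESeq2.

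**Figure D2:**
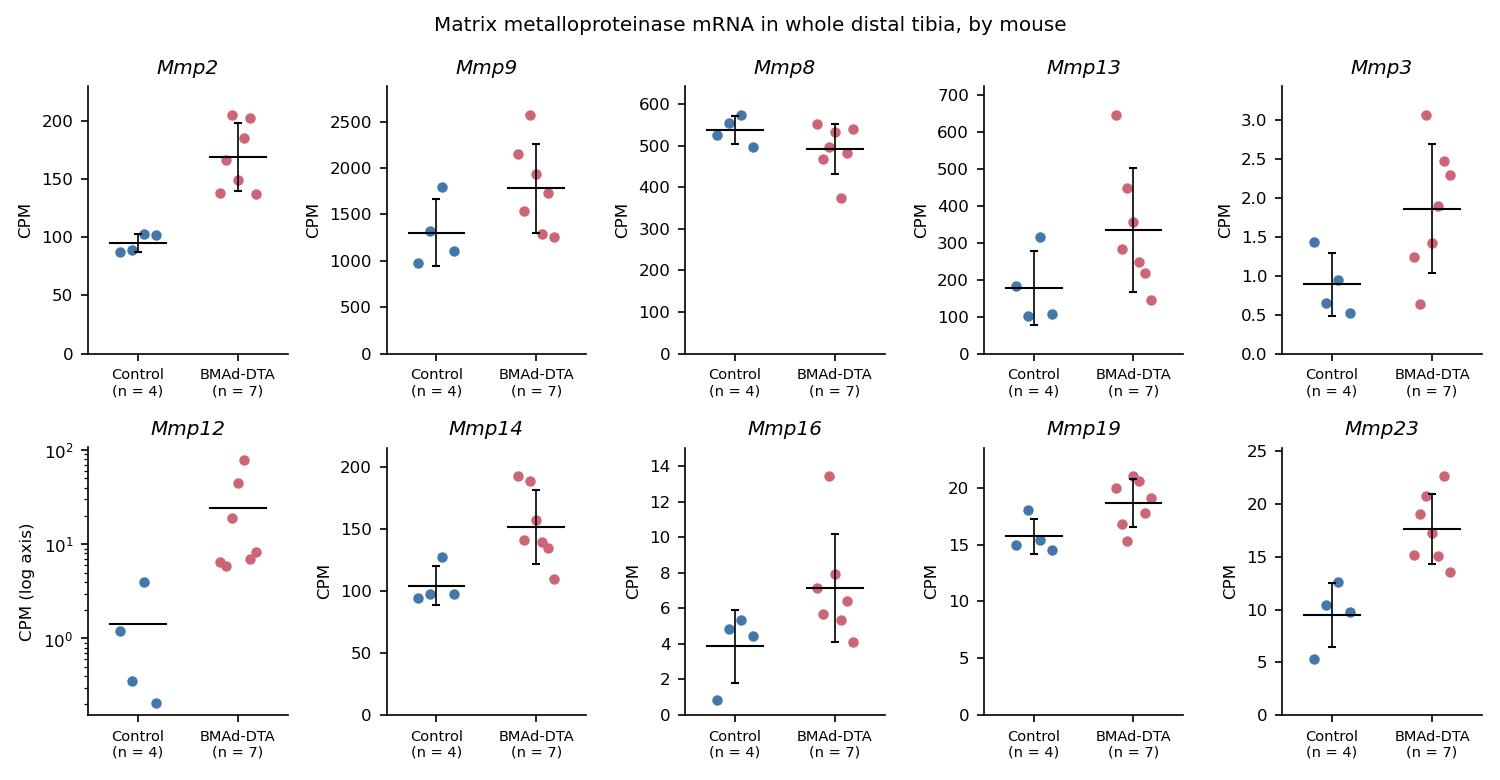
CPM of the 10 genes in each mouse, with the group mean as a horizontal line and the SD as a bar. The axis of Mmp12 is logarithmic and has no SD bar, and the others start at 0. Points of the groups do not overlap for Mmp2, Mmp12 and Mmp23, and overlap for the other 7 genes.

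Mmp2 encodes gelatinase A, a broadly expressed stromal enzyme that cuts denatured collagen and type IV collagen. It was at 87.3, 89.3, 103 and 102 CPM in Control replicates 1 to 4, and at 137 CPM in the lowest, 167 CPM in the median and 206 CPM in the highest BMAd-DTA mouse. The groups did not overlap, with the lowest BMAd-DTA mice (replicates 7 and 1) well above the highest control. The log2 fold change was 0.83 (standard error 0.12, 95% confidence interval 0.57 to 1.10, edgeR adjusted p = 0.0326), from 95.2 ± 8.01 CPM (SD, n = 4) to 169 ± 29.2 CPM (SD, n = 7). In the 7 libraries with more muscle RNA, Mmp2 was at 87.3 to 103 CPM in 3 controls and 137 to 203 CPM in 4 BMAd-DTA mice, and the libraries with under 26 CPM of muscle markers include only 1 control, so no comparison was made within them. Of the muscle markers, 12 were tested and all 12 had a negative log2 fold change (median -0.93). With the muscle score as a covariate, the log2 fold change of Mmp2 was 0.79 and the adjusted p was 0.0681. It rose above 0.05 on leaving out either of Control replicates 1 (to 0.142) and 2 (to 0.129), and was just above it when BMAd-DTA replicate 1 (0.0526), 4 (0.0547) or 6 (0.0556) was left out, while the log2 fold change stayed between 0.78 and 0.88 with any 1 mouse left out.

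The other gelatinase, Mmp9, is abundant in osteoclasts and in neutrophil granules. Its levels were 971, 1324, 1797 and 1110.2 CPM in Control replicates 1 to 4 and 1257 CPM (lowest), 1725 CPM (median) and 2574 CPM (highest) in BMAd-DTA mice. The groups overlapped, since Control replicate 3 was above 4 of the 7 BMAd-DTA mice. Its log2 fold change of 0.45 (standard error 0.21) had an edgeR adjusted p of 0.308.

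Of the collagenases, Mmp8 is stored in neutrophil granules and was the steadiest abundant gene of the set. It was at 527, 554, 575 and 497 CPM in the controls, and at 374, 498 and 552 CPM in the lowest, median and highest BMAd-DTA mouse. The ranges overlapped and no BMAd-DTA mouse exceeded the highest control. Its log2 fold change was -0.13 (95% confidence interval -0.34 to 0.08, edgeR adjusted p = 0.554). The 12 neutrophil markers summed to 25148 to 28997 CPM in controls and 20670 to 30163 CPM in BMAd-DTA mice, with BMAd-DTA replicate 5 lowest in this sum and in Mmp8. Their log2 fold changes were positive in 6 and negative in 6 (median -0.017), and none passed the edgeR test, had an unadjusted p under 0.05 or passed DESeq2. The part of neutrophil number in the values of Mmp8 was not tested.

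Mmp13 encodes the fibrillar collagenase of osteoblasts, osteocytes and hypertrophic chondrocytes. Its levels were 184, 102, 316 and 107 CPM in the controls and 144, 282 and 647 CPM in the lowest, median and highest BMAd-DTA mouse. The groups overlapped, with 4 of the 7 BMAd-DTA mice (replicates 2, 5, 6 and 7) inside the range of the controls and Control replicates 1 and 3 inside the BMAd-DTA range. With this spread within both groups, a log2 fold change of 0.92 (standard error 0.40, 95% confidence interval 0.05 to 1.78) had an edgeR adjusted p of 0.271. Mmp2 had a smaller fold change with a standard error of 0.12.

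Mmp3 (stromelysin 1, which cuts proteoglycans and fibronectin and activates other proMMPs) and Mmp12 (macrophage elastase) were the least abundant genes of the chromosome 9 cluster. Mmp3 had 10 to 54 counts per library. It was at 1.43, 0.648, 0.945 and 0.518 CPM in controls and 0.63, 1.89 and 3.06 CPM in the lowest, median and highest BMAd-DTA mouse. The groups overlapped, and 4 of the BMAd-DTA mice exceeded the highest control (log2 fold change 1.06, standard error 0.42, edgeR adjusted p = 0.221).

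Mmp12 spanned the widest range, from 4 to 1377 counts per library. It was at 1.21, 0.353, 3.96 and 0.207 CPM in Control replicates 1 to 4, and at 6.42, 5.85, 18.8, 44.3, 79.0, 7.04 and 8.37 CPM in BMAd-DTA replicates 1 to 7. The groups did not overlap, but replicates 4 and 5 held most of the counts and the median BMAd-DTA mouse was at 8.37 CPM. The log2 fold change of 4.10 (standard error 1.01, 95% confidence interval 1.92 to 6.28) had an edgeR adjusted p of 0.0841, and of 0.00217 in DESeq2. Without BMAd-DTA replicate 5 it was 3.41 (adjusted p = 0.0718), and without Control replicate 3 it was 5.35 (adjusted p = 0.0497). Other settings gave larger adjusted p values. In edgeR it was 0.258 without Control replicate 1, 0.196 without Control replicate 2 and 0.185 with the muscle score as a covariate (log2 fold change 3.59). The voom method of limma gave 0.251. The summed level of 9 macrophage markers overlapped between the groups (1421 to 1495 CPM in controls, 1332 to 1591 CPM in BMAd-DTA mice), and 4 of the 9 had a positive and 5 a negative log2 fold change, none past the edgeR threshold (without adjustment 1 was higher and 1 lower, and DESeq2 called 1 higher). The higher marker was Cd68, at 178 to 230 CPM in controls and 249 to 329 CPM in BMAd-DTA mice, without overlap (edgeR adjusted p = 0.0720). It was highest in BMAd-DTA replicates 5 and 4. The lower marker was Adgre1 (log2 fold change -0.30). Replicates 4 and 5 had the largest macrophage sums of the 11 mice, at 1591 and 1583 CPM, and the part of macrophages in their Mmp12 was not tested.

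Among the membrane-type enzymes, Mmp14 (MT1-MMP, which cuts collagen at the cell surface and activates proMMP2) was at 94.4, 97.3, 127 and 97.7 CPM in the controls and 109.8, 141 and 192 CPM in the lowest, median and highest BMAd-DTA mouse. Only BMAd-DTA replicate 7 overlapped the controls, below Control replicate 3 and above the other 3. The log2 fold change of 0.54 (standard error 0.15) had an edgeR adjusted p of 0.0992 and of 0.0107 in DESeq2. Mmp16 (MT3-MMP) was much lower, at 0.827, 4.83, 5.38 and 4.46 CPM in the controls and 4.1, 6.4 and 13.4 CPM in the lowest, median and highest BMAd-DTA mouse. Its low control value came from replicate 1, the library with little Col1a1, and the other controls overlapped the BMAd-DTA mice (log2 fold change 0.88, standard error 0.41, edgeR adjusted p = 0.311). Without Control replicate 1 the log2 fold change of Mmp16 was 0.55.

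Mmp19 and Mmp23 are less studied enzymes, and MMP23 is anchored in the membrane and lacks the hemopexin domain that most MMPs carry. Mmp19 was at 14.9, 18, 15.4 and 14.6 CPM in controls and 15.3, 19.1 and 21 CPM in the lowest, median and highest BMAd-DTA mouse, and the groups overlapped (log2 fold change 0.25, standard error 0.10, edgeR adjusted p = 0.254). Mmp23 was at 5.35, 10.4, 12.6 and 9.75 CPM in controls and 13.5, 17.3 and 22.7 CPM in the lowest, median and highest BMAd-DTA mouse. The groups did not overlap. The log2 fold change of 0.89 (standard error 0.21) had an edgeR adjusted p of 0.0726 and of 0.00146 in DESeq2. Without Control replicate 1 it was 0.69 (adjusted p = 0.234), and without Control replicate 3 it was 1.06 (adjusted p = 0.0437).

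**Figure D3:**
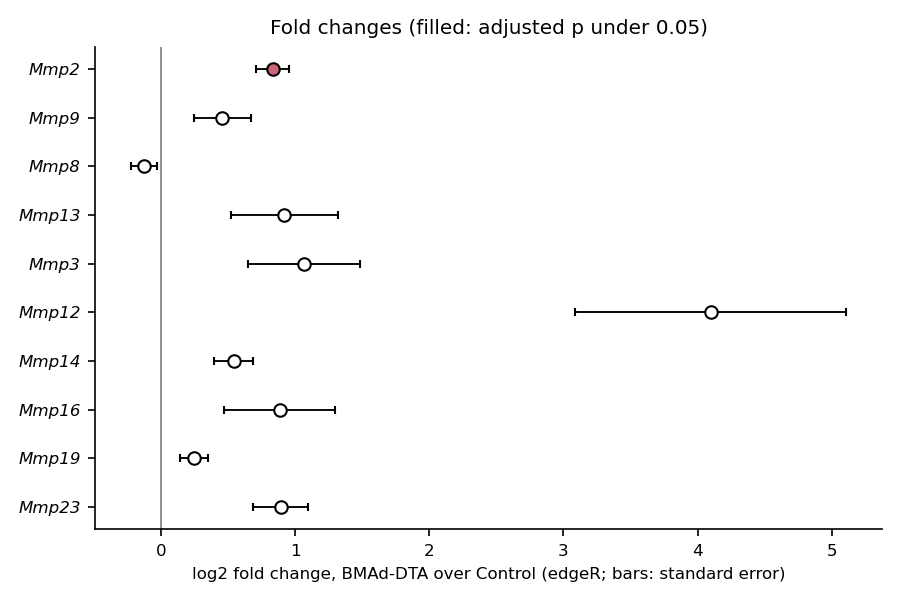
Log2 fold change of BMAd-DTA over Control from edgeR for each gene, with its standard error as a bar, filled where the adjusted p is under 0.05. Mmp2 is the only filled point. Mmp12 has both the largest value (4.10) and the widest bar (standard error 1.01).

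The same libraries were high for several of the genes. BMAd-DTA replicates 1 and 3 held the 2 highest levels of Mmp9, Mmp13 and Mmp14, and in the controls replicate 3 was highest for all 3. The summed osteoclast markers followed the same libraries. Their 9 genes summed to 1640 CPM in Control replicate 3 and 1074 to 1203 CPM in the other controls, and to 2758 and 2688 CPM in BMAd-DTA replicates 1 and 3 and 1278 to 1968 CPM in the other BMAd-DTA mice. Of the 9, 8 had a positive log2 fold change (median 0.95), none passed the edgeR test (6 were higher at an unadjusted p under 0.05 and 1 in DESeq2), and 4 of 7 BMAd-DTA sums exceeded the highest control. Itgb3, 1 of the 9, was lowest of its group in Control replicate 3 (393 CPM) and in BMAd-DTA replicate 3 (388 CPM). In BMAd-DTA replicate 1 it was highest of the BMAd-DTA mice (646 CPM). Mmp2 had the order of the summed osteoclast markers in the controls, highest in Control replicate 3. In the BMAd-DTA mice it did not follow that order. It was highest in BMAd-DTA replicate 3 (206 CPM), but BMAd-DTA replicate 1 was among its 2 lowest BMAd-DTA mice. The summed osteoblast and osteocyte markers did not overlap between the groups (11 of 11 genes with a positive log2 fold change, median 1, with no overlap in 4 of them and Alpl called at an edgeR adjusted p of 0.0326). All 11 were higher at an unadjusted p under 0.05, and DESeq2 called 8 higher. Col1a1 made up most of this sum in every library, at 1245 to 6226 CPM in controls and 7609 to 18037 CPM in BMAd-DTA mice. The summed chondrocyte markers did not overlap either (452 to 723 CPM in controls, 782 to 971 CPM in BMAd-DTA mice), but this rested on Col2a1, the only 1 of 7 tested chondrocyte markers without overlap. Without Col2a1 the sums overlapped, at 272 to 466.3 CPM and 327 to 511 CPM, and none of the 7 passed the edgeR test (3 were higher at an unadjusted p under 0.05 and 1 in DESeq2). The summed marrow stroma markers overlapped (2847 to 4430 CPM and 2843 to 4670 CPM). Most of this sum was Cxcl12, at 2399 to 3877 CPM in controls and 2427 to 4121 CPM in BMAd-DTA mice. Of the 6 stroma markers, 3 had a positive and 3 a negative log2 fold change, and none passed the edgeR test. Without adjustment 1 was higher and 1 lower at a p under 0.05, and DESeq2 called 1 higher. Whether the levels of Mmp2, Mmp9, Mmp13 or Mmp14 reflect the amount of these cell types was not tested.

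**Figure D4:**
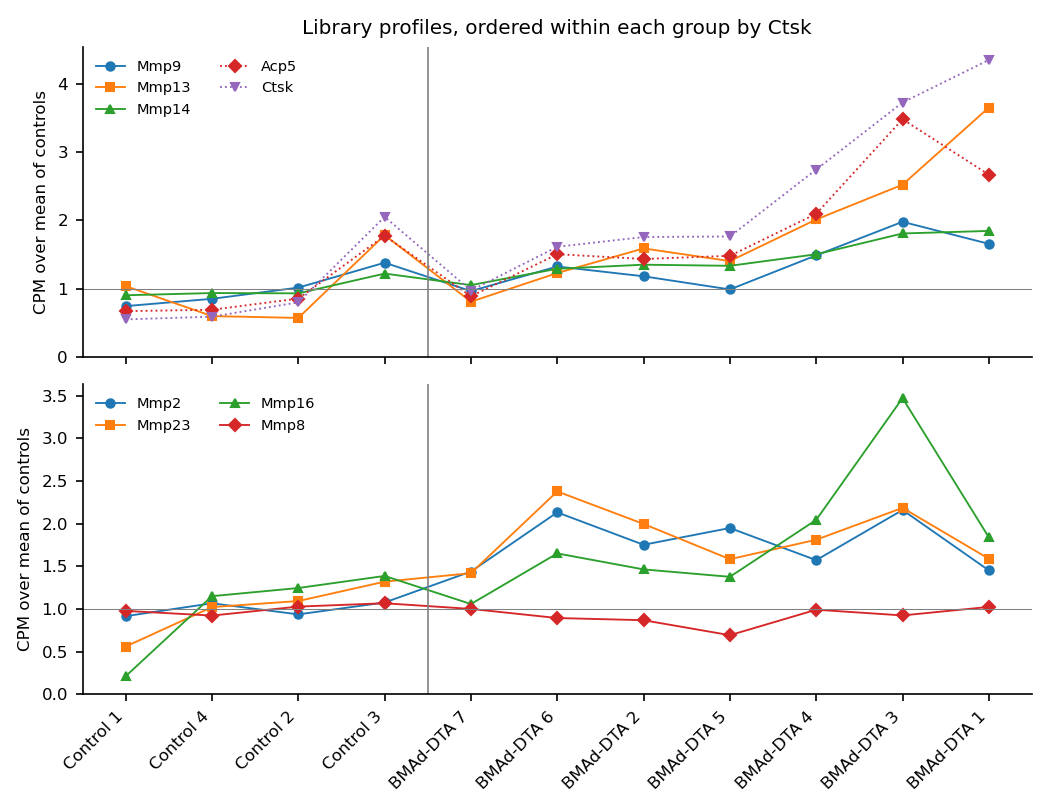
CPM of each gene divided by its mean over the 4 controls, in the 11 mice ordered within each group by Ctsk, with Control mice left of the vertical line. In the upper panel Mmp9, Mmp13 and Mmp14 peak with the osteoclast genes Acp5 and Ctsk in BMAd-DTA replicates 1 and 3. In the lower panel Mmp2 and Mmp8 do not follow the order of Ctsk, though both are highest of the controls in Control replicate 3 and Mmp2 is highest in BMAd-DTA replicate 3. Mmp16 has the order of Ctsk in the controls and its 3 highest BMAd-DTA mice are also those of Ctsk (replicates 1, 3 and 4), and Mmp23 follows Ctsk in the controls alone.

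Genes that varied most like each MMP from mouse to mouse were found by the Pearson correlation of log2 CPM over the 11 libraries, after the mean of each group had been subtracted, among 12973 genes with a mean of 50 counts or more. These are the highest of many values and share their libraries, so they are given as a description with no p. Mmp9 was most like Etl4 (r = 0.95), Creb3l1 (0.95) and Acp5 (0.95), and Mmp14 like Slc9b2 (0.96), Acp5 (0.96) and Ctsk (0.96). Mmp13 was most like Spp1 (0.98), Rcan1 (0.96) and Bdh1 (0.96). Acp5 and Ctsk encode the acid phosphatase and the collagenolytic protease that osteoclasts secrete, and Spp1 encodes osteopontin. Mmp16 was nearest to P3h1 (0.96), Panx3 (0.96) and Fndc3b (0.95), of which P3h1 encodes a prolyl hydroxylase of collagen. For Mmp2 the nearest were 2310011J03Rik (0.91), Laptm4a (0.91) and Bet1l (0.88), and for Mmp8 they were Itgb2 (0.94), which encodes the leukocyte integrin beta chain, Vsir (0.92) and Ttc21a (0.92). Mmp12 was nearest to Tmem126b (0.93), Oplah (0.91) and Gpn3 (0.91), Mmp19 to Ddx11 (0.91), Gm34589 (0.87) and Gm44710 (0.85), and Mmp23 to Ighv2-9-1 (0.96), Rhbdf1 (0.95) and Cdc42bpg (0.95). With the 2 libraries where an MMP lay farthest from its median left out, r ran from 0.76 (Mmp8 with Vsir) to 0.97 (Mmp14 with Acp5). Mmp3, with fewer counts, was not ranked.

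Among the 8 inhibitors, 5 had a positive and 3 a negative log2 fold change and none passed the edgeR test (median 0.30), with 5 higher at an unadjusted p under 0.05 and 3 in DESeq2. Over all genes, these shares were 7.89% and 2.78%. Timp1 encodes an inhibitor that also binds proMMP9, and had the largest log2 fold change, 1.07 (standard error 0.30, edgeR adjusted p = 0.11), while Timp4 had the smallest, -0.25 (standard error 0.51, adjusted p = 0.855). Timp2, which inhibits MMP2 and links its proform to MMP14, was at 328 to 388 CPM in controls and 421 to 514 CPM in BMAd-DTA mice. These ranges did not overlap (log2 fold change 0.39, standard error 0.070, edgeR adjusted p = 0.0663).

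A count ratio within a library does not depend on library scaling, so 3 proteinases were set against their inhibitors with an exact permutation test, two-sided, over the 330 splits of 11 mice into 4 and 7. Its smallest possible p is 0.00303, and p values were adjusted over the 3 ratios. The genes had been chosen with earlier results of these data known, and the adjustment does not allow for that choice. The ratio of Mmp2 to Timp2 counts was 0.258 to 0.290 in controls and 0.291 to 0.435 in BMAd-DTA mice. No BMAd-DTA mouse reached down to the controls, although the lowest missed them by a small margin, and the mean log2 ratio was higher by 0.43 (exact permutation p = 0.00606, adjusted p = 0.0182). The difference was 0.38 to 0.48 with any 1 mouse left out, and its adjusted p was above 0.05 in 7 of those 11 cases, each Control mouse included. Mmp14 to Timp2 was 0.279 to 0.329 in controls and 0.249 to 0.405 in BMAd-DTA mice, with overlapping groups (log2 difference 0.14, exact permutation p = 0.282, adjusted p = 0.282). Mmp9 to Timp1 was 98.5 to 166 in controls and 53.0 to 111 in BMAd-DTA mice, 5 of which were below every control. Its log2 difference of -0.62 did not pass after adjustment (exact permutation p = 0.0424, adjusted p = 0.0636).

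**Figure D5:**
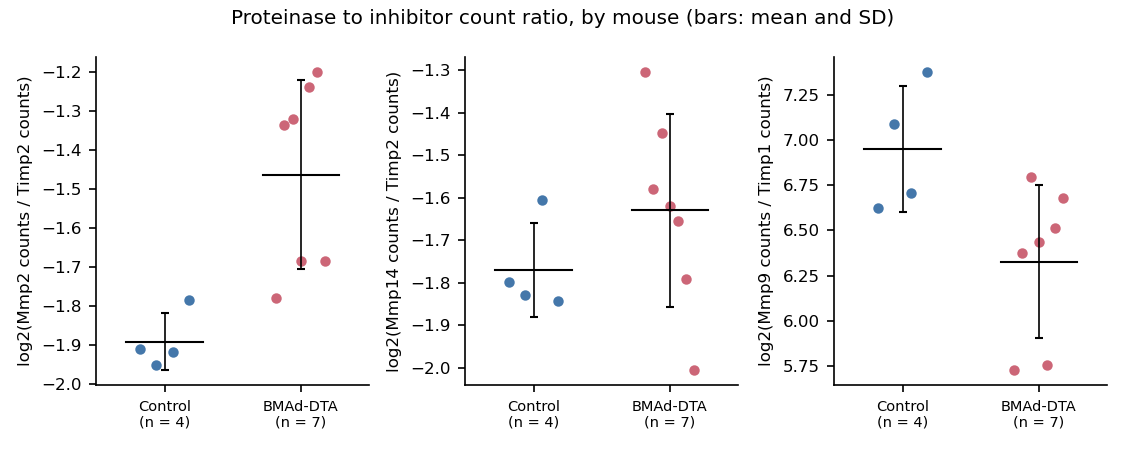
Log2 ratio of proteinase counts to inhibitor counts in each mouse, with group means and SDs. For Mmp2 to Timp2 all BMAd-DTA points lie above the controls, for Mmp14 to Timp2 the groups overlap, and for Mmp9 to Timp1 5 of 7 BMAd-DTA points lie below the controls.

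Of the 15 listed activators and cofactors, 14 were tested, and 12 had a positive and 2 a negative log2 fold change (median 0.24). Cd63 alone passed the edgeR test, with 6 higher at an unadjusted p under 0.05 and 4 in DESeq2. Over all genes, 7.89% were higher at an unadjusted p under 0.05 and 2.78% in DESeq2. The groups did not overlap in Pcsk5, Pcsk6, Mrc2 and Cd63, each higher in BMAd-DTA mice, which held for 1.78% of all genes. Cd63 encodes a tetraspanin that binds TIMP1 at the cell surface. It was at 139.5, 147, 153 and 149 CPM in controls and 192, 202 and 251 CPM in the lowest, median and highest BMAd-DTA mouse. The groups did not overlap (log2 fold change 0.51, standard error 0.077, edgeR adjusted p = 0.0326). The largest value was that of Ctsk at 1.27 (standard error 0.45, adjusted p = 0.173), and the smallest that of Bsg, the EMMPRIN gene, at -0.16 (standard error 0.11, adjusted p = 0.477). Plg, the plasminogen gene, had at most 2 counts in a library and was not tested.

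Of 16 listed transcription regulators, 15 were tested, with 10 positive and 5 negative log2 fold changes (median 0.079). None passed the edgeR test, with 5 higher at an unadjusted p under 0.05 and 1 in DESeq2. Fosl1, an AP-1 subunit, had the largest at 1.42 (standard error 0.35, edgeR adjusted p = 0.0810) but only 3 to 22 counts in a library, and Fosb, another, had the smallest at -0.24 (standard error 0.37, adjusted p = 0.811). Junb was not analysed here. All 16 matrix substrates had a positive log2 fold change (median 0.30), from 0.075 for Eln to 1.35 for Col1a1 (standard error 0.39, edgeR adjusted p = 0.115). None passed in edgeR, with 7 higher at an unadjusted p under 0.05 and 5 in DESeq2 (over all genes 7.89% and 2.78%). Their summed level was 6823 CPM in Control replicate 1, 14508 to 17313 CPM in the other controls and 20122 to 40218 CPM in BMAd-DTA mice, so the sums did not overlap with or without that library. Singly, 6 of the 16 genes had no overlap and were higher in BMAd-DTA mice, which held for 1.78% of all genes.

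The MMP genes outside the set were split in direction. Of 13 listed, 6 were tested, 3 had a positive and 3 a negative log2 fold change (median -0.0050), and none passed in edgeR or DESeq2, with 1 lower at an unadjusted p under 0.05. The largest was that of Mmp17 at 0.31 (standard error 0.25, edgeR adjusted p = 0.591) and the smallest that of Mmp27 at -0.22 (standard error 0.28, adjusted p = 0.761). Their summed level was 131 to 155 CPM in controls and 114 to 147 CPM in BMAd-DTA mice. Mmp1a, Mmp1b and Mmp10 had no count in any library of the per-library files, and Mmp7, Mmp20 and Mmp24 had 4, 2 and 8 counts over all 11.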

How the data were processed

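Strand-specific mRNA libraries (paired-end reads) were made from powdered whole distal tibia of each mouse (4 Control, 7 BMAd-DTA). Per the study's methods and the submitters' processing notes, the authors checked reads with FastQC 0.11.9, aligned them to mm10 with STAR and deposited counts of read pairs per gene, per library and as a merged table, without normalization. The annotation release is not given in the sources used here. Pairs that were unmapped (9.1% to 15.1% of a library), multimapping (6.68% to 9.07%), on no gene (6.58% to 8.44%) or ambiguous (1.49% to 1.70%) stayed out of library sizes and tests.

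The merged counts entered edgeR 4.0.16 (R 4.3.3). Low counts were removed by filterByExpr, which left 16496 genes, and TMM scaling, glmQLFit and glmQLFTest followed with genotype as the only term, two-sided, Benjamini-Hochberg adjustment over all genes tested. The standard error is the log2 fold change over the square root of F, and confidence intervals use the degrees of freedom of that test. CPM were computed on scaled library sizes, and CPM per kb on the union of exons in GENCODE M21 (99.9% of identifiers matched). Alternatives used DESeq2 1.42.0, limma 3.58.1 (voom), other scalings and filters, the per-library counts, a skeletal muscle score as covariate, and each mouse left out in turn. Steps were tested on simulated data. The genes and gene lists were chosen with earlier results of these data known. Within each list the text names the genes past the threshold and the extremes of log2 fold change on either side. For each MMP with a mean of at least 50 counts, the 3 most similar genes are named. Other genes (Timp2, Plg, Junb, Alpl, Xist, Pcsk5, Pcsk6, Mrc2, Itgb3, Cxcl12, Cd68, Adgre1 and the Y-linked genes) were chosen after their values were seen. Replicates are separate mice, numbered in accession order.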

Additional observations from a re-analysis of the deposited data

Results flagged for a closer look

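In 26 groups of values (10 genes and 3 ratios, 2 groups of mice each), a gap test on the highest and lowest mouse marked 2, where chance marks about 1 in 20. Mmp14 in Control replicate 3 was at 127.4 CPM, and its gap to the next control was 0.8975 of the range of the 4 controls (critical value 0.829). The other controls lay within 94.4 to 97.7 CPM, and without this mouse the log2 fold change of Mmp14 was 0.66 (edgeR adjusted p = 0.0514). Mmp16 in BMAd-DTA replicate 3 was at 13.45 CPM, with a gap of 0.5913 of the range of the 7 BMAd-DTA mice (critical value 0.568). Control replicate 3 and BMAd-DTA replicate 3 share only a number.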

How the results depend on the processing

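No MMP changed direction under any of 20 alternatives. Of the 200 values of the 10 genes, 188 kept their side of the threshold, 6 lost a call (all Mmp2) and 6 gained one (Mmp12 and Mmp14 in DESeq2, Mmp12 and Mmp23 without Control replicate 3, Mmp23 in DESeq2 and in voom with sample quality weights). The count of MMPs past the threshold, 1 in the main test, was 4 in DESeq2, 2 in voom with sample quality weights, 0 with the muscle covariate and 0 to 3 with 1 mouse left out (0 without Control replicate 1 or 2 or BMAd-DTA replicate 1, 4 or 6, and 3 without Control replicate 3). Over all genes it was 13, with 2708 at an unadjusted p under 0.05, and became 845 in DESeq2, 20 in voom, 238 in voom with sample quality weights, 20 with RLE scaling, 3 with the muscle covariate and 0 to 292 with 1 mouse left out. It was 0 without Control replicate 1, without Control replicate 2, without BMAd-DTA replicate 1 or without BMAd-DTA replicate 6, where 1784, 2239, 2626 and 2528 genes had an unadjusted p under 0.05. The log2 ratio of Mmp2 to Timp2 stayed between 0.384 and 0.481 (adjusted p 0.0286 to 0.125, exact permutation test), that of Mmp14 to Timp2 between 0.086 and 0.203, and that of Mmp9 to Timp1 between -0.731 and -0.48, which passed without BMAd-DTA replicate 3 (-0.70, adjusted p = 0.0357, exact permutation test). The cause of these moves was not tested. No paired analysis was possible because the labels give no litter or other pairing of Control with BMAd-DTA mice. Depth limits Mmp3, with as few as 10 counts, Mmp12 with 4 and Mmp16 with 15.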
